A study of Mus musculus with 16 samples.

Results

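The Mas-related G-protein-coupled receptor (Mrgpr) genes encode receptors of small-diameter sensory neurons. The 6 genes described here, Mrgprd, Mrgprb4, Mrgprb5, Mrgprx1, Mrgpra3 and Mrgpre, were chosen as markers of non-peptidergic neuron classes and were found in the count files by matching Ensembl identifiers to gene symbols in the mm10 annotation. They are 6 of the 52636 genes listed and 6 of the 34 annotated genes of the family, of which 21 are protein-coding and 13 are pseudogenes. All 6 passed the filter on low counts, which left 21371 genes to be tested.

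Mrgpr receptors signal through Gq-class and other G proteins to phospholipase C and open excitatory channels such as TRPA1, so that their ligands excite the neuron. In the mouse dorsal root ganglion (DRG) the genes divide the non-peptidergic C-fibre neurons into classes. Mrgprd, the receptor of the amino acid beta-alanine, marks neurons that innervate the epidermis and take part in mechanical pain and itch. Mrgpra3, the chloroquine receptor, and Mrgprx1, which responds to the peptide BAM8-22, mark a smaller class of itch neurons, Mrgprb4 and Mrgprb5 mark neurons that respond to gentle stroking of hairy skin, and Mrgpre is a receptor without an established ligand. During development the transcription factor Runx1 is needed to switch on most of these genes.

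RNA from the L3-6 DRGs of 16 male C57Bl6/J mice, 1 mouse per library, was sequenced in 4 groups of 4 mice. The Sham-Saline and SNI-Saline groups had sham surgery or tibial spared nerve injury (SNI), and received saline. The Sham-DMI and SNI-DMI groups had the same surgeries and received the tricyclic antidepressant desipramine (DMI), a blocker of noradrenaline reuptake, at 15 mg/kg i.p. 2 times a day. Treatment lasted 3 weeks and began 4 weeks after surgery per the labels, whereas 1 passage of the study's methods gives months in place of weeks. The mice were 3 to 4 months old, no genetic change is given for any group, and nothing was sorted from the ganglia, so that neurons of every class, glia and immune cells are mixed in each library. In such bulk RNA, fewer cells of a type and less RNA per cell cannot be told apart. Library numbers in the labels run from 17 to 20 in Sham-DMI, 21 to 24 in SNI-DMI, 33 to 36 in SNI-Saline and 37 to 40 in Sham-Saline, so whatever these numbers stand for, which is not stated, cannot be told apart from the groups.

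Reads on genes ran from 41194238 to 73920332 per library. Spinal cord is the labelled tissue, with DRG as the labelled cell type. In CPM (counts per 1000000 reads on genes, with normalized library sizes), 8 spinal cord genes summed to 16.3 to 30.2 and 8 peptidergic nociceptor genes to 1685 to 2290. Of the spinal cord genes, Aqp4 (7.53 to 13.45 CPM), Slc1a2 (6.17 to 14.2) and Slc5a7 (1.72 to 4.92) were present in every library, Olig1 reached 1.04 CPM and Mog 0.749, and Chat, the acetylcholine-synthesizing enzyme of motor neurons, Olig2 and Slc6a5 reached 0.0919, 0.290 and 0.5195. Injured sensory neuron genes rose in SNI-Saline versus Sham-Saline in 7 of 8 cases at an adjusted p under 0.1, with Atf3, a transcription factor of axotomized neurons, higher by 2.32 on the log2 scale (edgeR adjusted p = 2.51e-05). For all genes, the calls split into 1250 higher and 1321 lower in SNI-Saline versus Sham-Saline and 2475 higher and 2535 lower in Sham-DMI versus Sham-Saline. Scaling the libraries on the summed counts of 10 pan-neuronal genes turned these into 226 higher and 1828 lower, and 393 higher and 5210 lower, with the median over all genes tested moving from -0.001 to -0.079 and from -0.021 to -0.155. With each library's trends on GC content and exon length removed, the split in Sham-DMI versus Sham-Saline was 3335 higher and 776 lower, and in SNI-DMI versus SNI-Saline it went from 282 higher and 344 lower to 45 higher and 3 lower.

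All 6 genes lie on chromosome 7 in GRCm38. The files list them as ENSMUSG00000051207 (Mrgprd), ENSMUSG00000070550 (Mrgprb4), ENSMUSG00000070551 (Mrgprb5), ENSMUSG00000070552 (Mrgprx1), ENSMUSG00000078698 (Mrgpra3) and ENSMUSG00000048965 (Mrgpre). Mrgpra3 (47588950 to 47601372), Mrgprx1 (48020971 to 48027597), Mrgprb5 (48167983 to 48169019) and Mrgprb4 (48198070 to 48199288) stand on the minus strand in an array of 28 family genes that spans 1500 kb. Mrgprb4 and Mrgprb5, each of 1 exon, are neighbours 29.1 kb apart. Mrgpre (143778363 to 143784500, minus strand) and Mrgprd (145314835 to 145324086, plus strand) lie far from the array, and Mrgprd has Mrgprf, another family gene, at a distance of 5.3 kb. The only exon overlap was that of Mrgpre with the microRNA gene Gm22064 on the opposite strand, over 66 bases.

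Mrgprb4 and Mrgprb5 are the most alike of the 6 genes, with 84.5% identity over 963 aligned coding bases. Their sequences are shown because reads that fit both genes equally well cannot be assigned to either. The longest coding stretch that both share, bases 858 to 914 of Mrgprb4 and 861 to 917 of Mrgprb5 counted from the start codon, is 57 bases long:
Mrgprb4 and Mrgprb5: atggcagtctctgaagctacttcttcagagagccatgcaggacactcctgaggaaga
Mrgpra3 is most like Mrgpra4 (88.6% over 930 bases), with a shared stretch of 76 bases at coding bases 216 to 291 of Mrgpra3:
Mrgpra3 and Mrgpra4: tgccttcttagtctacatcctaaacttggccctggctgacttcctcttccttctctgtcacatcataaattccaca
Such stretches are longer than the 50-base reads, and a single read inside them cannot be placed. Reads without a unique alignment (5.71% to 6.4% per library) are not part of the gene counts. Of all 50-base windows of the exons, 7.14% in Mrgpra3, 5.84% in Mrgprx1, 1.45% in Mrgprb4, 1.35% in Mrgpre, 0.81% in Mrgprb5 and 0% in Mrgprd also occur in another gene, so the values of Mrgpra3 and Mrgprx1 are the most uncertain in this respect. For Mrgprx1 the genes concerned are the pseudogenes Mrgprc1-ps, Mrgprc2-ps and Mrgprc4-ps and the genes Gm18348 and Gm9322.

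The bases upstream of the annotated start are shown for the genes whose levels moved together across mice. Upstream sequences came from RefSeq (GRCm38.p6), cut at the start of the gene in GENCODE, and 5 of the 6 genes were matched, Mrgpra3 not being among them. Mrgprb4 and Mrgprb5 were identical at 110 of 140 aligned bases (78.6%), and capitals mark the bases that differ or have no counterpart in the other window:
Mrgprb4, chr7:48199289-48199428, minus strand: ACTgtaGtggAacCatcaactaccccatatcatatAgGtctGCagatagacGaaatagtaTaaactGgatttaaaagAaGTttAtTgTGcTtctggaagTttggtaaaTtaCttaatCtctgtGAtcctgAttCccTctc
Mrgprb5, chr7:48169020-48169235, minus strand: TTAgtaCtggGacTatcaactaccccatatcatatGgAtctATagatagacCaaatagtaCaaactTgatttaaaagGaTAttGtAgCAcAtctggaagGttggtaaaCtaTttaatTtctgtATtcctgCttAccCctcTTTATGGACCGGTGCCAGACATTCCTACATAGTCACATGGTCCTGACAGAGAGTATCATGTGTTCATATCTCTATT
The other pairs of the 5 genes had 46.4% to 59.6% identity. For Mrgprd and Mrgprx1, at 49.3% over 217 aligned bases, the windows are printed with no capitals since no motif was found in them:
Mrgprd, chr7:145314585-145314834, plus strand: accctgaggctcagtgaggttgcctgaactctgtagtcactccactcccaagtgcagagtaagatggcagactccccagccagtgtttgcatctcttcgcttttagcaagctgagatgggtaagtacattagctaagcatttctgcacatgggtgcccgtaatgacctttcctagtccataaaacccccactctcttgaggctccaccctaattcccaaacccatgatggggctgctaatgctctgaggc
Mrgprx1, chr7:48027598-48027847, minus strand: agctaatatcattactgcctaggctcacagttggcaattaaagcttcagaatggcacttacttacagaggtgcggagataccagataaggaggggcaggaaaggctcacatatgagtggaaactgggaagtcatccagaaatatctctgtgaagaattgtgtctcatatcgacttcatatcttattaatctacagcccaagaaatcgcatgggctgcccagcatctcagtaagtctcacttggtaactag
The letters TGTGGT, the core that RUNX factors bind, were searched on both strands as TGTGGT or ACCACA. None of the 5 windows held a match, and of these those of Mrgprb4 and Mrgprb5 are shorter than the 250 upstream bases searched in all 32851 mouse promoters, of which 14.05% held one.

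Per kb of exon, Mrgprd was the most abundant family gene, at 53.1 ± 10.9 CPM per kb (SD over the 16 mice). The pseudogene Mrgprx3-ps came next, at a mean of 28.5 CPM per kb. Mrgprd stood above Mrgprx1, the next of the 6, in 16 of 16 mice. Mrgprx1 (13.4 ± 2.59 CPM per kb), Mrgpra3 (11.9 ± 1.33), Mrgprb5 (11.4 ± 3.64) and Mrgpre (9.82 ± 0.583) followed, each above the next in 9 of 16 mice, so the order among these neighbours does not hold beyond their spread. Mrgprb4 (7.40 ± 2.50 CPM per kb) was lower than Mrgpre in 14 of 16 mice, and the exceptions were Sham-Saline replicates 1 and 4. In Sham-Saline the means were 10.08 CPM per kb for Mrgprb4 and 10.02 for Mrgpre, so the order of this pair differed between groups. The 6 genes held 86.7% of all reads on the family, and Mrgprd alone held 56.6%. Between mice, the highest CPM was 3.22 times the lowest for Mrgprb5 and 3.10 times for Mrgprb4, but 1.23 times for Mrgpre.

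**Figure D1:**
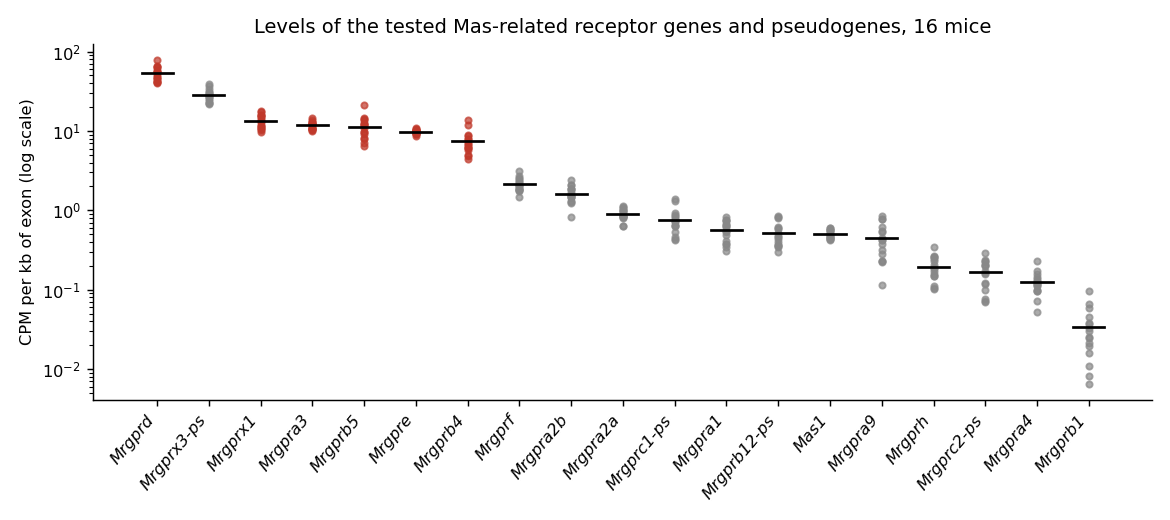
Level of each tested family gene in CPM per kb of exon (log scale). Each point is 1 of 16 mice, bars are means, red points are the 6 genes described and grey points are other family genes and pseudogenes. Mrgprd stands highest at a mean of 53.1 CPM per kb, and the other 5 lie between 7.40 and 13.4.

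Mrgprd fell with injury in the saline groups. Its level was 245, 172, 208 and 203 CPM in the 4 Sham-Saline mice, and the 4 SNI-Saline mice had 129, 144, 158 and 134 CPM. Every injured mouse was lower than every sham mouse. In Sham-DMI it was 171.5, 199, 183 and 152 CPM, and in SNI-DMI 129, 172, 147.5 and 125 CPM. Under DMI, 3 of the 4 injured mice were lower than all sham mice and SNI-DMI replicate 2 was not. With saline the means were 207 ± 30.02 CPM in sham and 141 ± 12.96 in injured mice, and with DMI 177 ± 19.9 and 143.5 ± 21.5 (SD, n = 4 each).

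Mrgprd fell by 32.0% in SNI-Saline versus Sham-Saline, with a log2 fold change of -0.56 (SE 0.111, edgeR quasi-likelihood adjusted p = 0.0138). In SNI-DMI versus Sham-DMI the log2 fold change was -0.30 (SE 0.110, adjusted p = 0.299). DMI gave -0.23 under sham (SE 0.110, adjusted p = 0.165) and 0.03 under SNI (SE 0.110, adjusted p = 0.929), with a 95% interval from -0.21 to 0.26. The effects of DMI under SNI and sham differed by 0.26 (SE 0.156, adjusted p = 0.686), a test that by construction is also that of the difference between the injury effects with and without DMI. The fall with injury was called in every fit without 1 library, with adjusted p from 0.00657 to 0.0604. Relative to the mean log2 CPM of 10 pan-neuronal genes, Mrgprd was lower by injury under saline, at -0.53 (exact permutation p = 0.0286, two-sided, the smallest that 4 against 4 mice allow). The call under sham with DMI depended on the scaling, since Mrgprd was at -0.37 with an adjusted p of 0.0326 when libraries were scaled on pan-neuronal genes, and at -0.31 (0.0652) without Sham-Saline replicate 2.

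**Figure D2:**
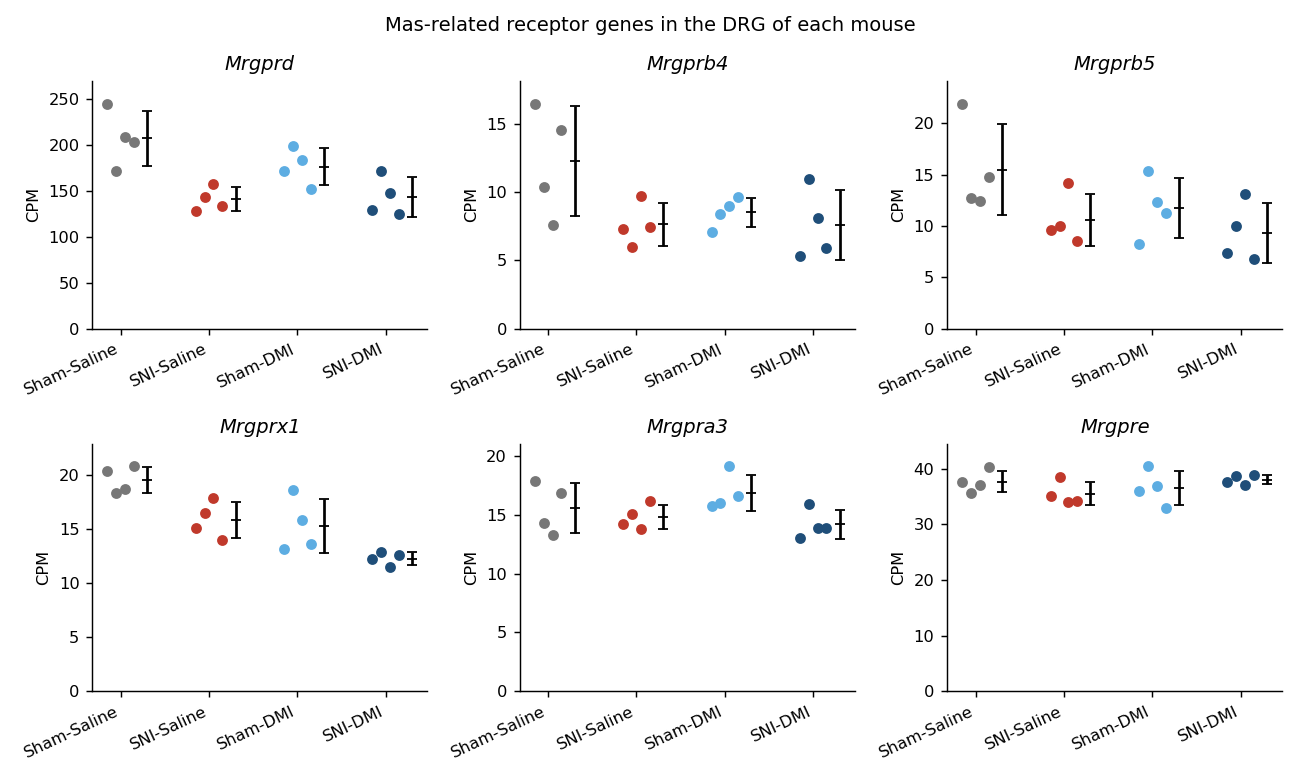
CPM of each of the 6 genes in every mouse. Coloured points are the 4 mice of a group, and the black mark with its bar is the group mean with its SD. Mrgprd is lower in all 4 SNI-Saline mice (129 to 158 CPM) than in any Sham-Saline mouse (172 to 245), and Mrgprx1 is lowest in SNI-DMI (11.5 to 12.9).

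Mrgprb4, of stroking-responsive neurons, was also lower after injury in the saline groups, from a far lower level. Sham-Saline mice had 16.5, 10.4, 7.60 and 14.6 CPM, against 7.34, 5.99, 9.77 and 7.49 CPM after SNI with saline. The groups overlapped, as Sham-Saline replicate 3 lay within the range of the injured mice. Sham-DMI mice had 7.09, 8.39, 8.97 and 9.66 CPM, and SNI-DMI mice 5.33, 11, 8.11 and 5.94 CPM. Mrgprb4 fell by 37.7% in SNI-Saline versus Sham-Saline (log2 fold change -0.68, SE 0.230, edgeR adjusted p = 0.0835), from 12.3 ± 4.03 to 7.65 ± 1.565 CPM (SD, n = 4 each). It did not pass when Sham-Saline replicate 1 (-0.50) or 4 (-0.59) was left out, nor when SNI-Saline replicate 1 (-0.65), 2 (-0.57) or 4 (-0.67) was, nor with the replicate number as a block (adjusted p = 0.123) or with trends on GC content and length removed (0.114). The exact two-sided permutation p was 0.0571.

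For Mrgprb4 the log2 fold change was -0.17 in SNI-DMI versus Sham-DMI (SE 0.232, edgeR adjusted p = 0.811), -0.53 in Sham-DMI versus Sham-Saline (SE 0.230, adjusted p = 0.128) and -0.01 in SNI-DMI versus SNI-Saline (SE 0.232, adjusted p = 0.988, 95% interval -0.50 to 0.48). The value under sham passed when libraries were scaled on pan-neuronal genes (-0.66, adjusted p = 0.0580), with no filter on low counts (-0.52, 0.0863), without Sham-Saline replicate 3 (-0.68, 0.0556) and without SNI-DMI replicate 2 (-0.53, 0.0881). The difference between the DMI effects was 0.52 (SE 0.326, adjusted p = 0.692).

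Mrgprb5, the neighbour of Mrgprb4, had 21.9, 12.7, 12.5 and 14.8 CPM in Sham-Saline, against 9.58, 9.99, 14.2 and 8.48 CPM after SNI with saline. In Sham-DMI it had 8.20, 15.3, 12.3 and 11.3 CPM, and in SNI-DMI 7.34, 9.98, 13.1 and 6.80 CPM. All groups overlapped, and Sham-Saline replicate 1 was the highest of the 16. The log2 fold change in SNI-Saline versus Sham-Saline was -0.55 (SE 0.228, edgeR adjusted p = 0.155), close to that of Mrgprd in size but with an SE about as large as that of Mrgprb4. It passed at an adjusted p under 0.1 with only the 8 saline libraries (0.0773), with no filter on low counts (0.0963) and without SNI-Saline replicate 3 (-0.73, 0.0738). In the other contrasts Mrgprb5 was at -0.34 (SNI-DMI versus Sham-DMI), -0.39 (Sham-DMI versus Sham-Saline) and -0.18 (SNI-DMI versus SNI-Saline), with adjusted p of 0.576, 0.261 and 0.707. The ratio of Mrgprb5 to Mrgprb4 CPM had group means from 1.26 to 1.39 and gave exact permutation p of 0.486 or more in the 4 contrasts.

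Mrgprx1, the BAM8-22 receptor of itch neurons, was the gene of the 6 called with DMI. Sham-Saline mice had 20.4, 18.3, 18.7 and 20.8 CPM and SNI-Saline mice 15.1, 16.5, 17.9 and 13.98 CPM. Sham-DMI mice had 13.2, 18.7, 15.8 and 13.7 CPM and SNI-DMI mice 12.2, 12.9, 11.5 and 12.6 CPM. All 4 SNI-DMI mice were lower than each of the other 12 mice, and all SNI-Saline mice were lower than all Sham-Saline mice. Sham-DMI overlapped Sham-Saline through Sham-DMI replicate 2. With saline the means were 19.6 ± 1.23 CPM in sham and 15.9 ± 1.70 in injured mice, and with DMI 15.3 ± 2.50 and 12.3 ± 0.598 CPM (SD, n = 4 each).

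Mrgprx1 fell by 21.6% in Sham-DMI versus Sham-Saline (log2 fold change -0.35, SE 0.1, edgeR adjusted p = 0.0237) and by 22.5% in SNI-DMI versus SNI-Saline (-0.37, SE 0.101, adjusted p = 0.0904). The difference between these effects was -0.02 (SE 0.142, adjusted p = 0.985), with a 95% interval from -0.32 to 0.28. The call under sham held in each of the 7 other fits of all libraries or of the 8 of the contrast (0.00636 to 0.0664) and in every fit without 1 library (0.00260 to 0.0839). The call under SNI was lost with the replicate number as a block (0.120), after removal of GC content and length trends (0.165), and in 12 of 16 fits without 1 library. The library left out was SNI-DMI replicate 1 (-0.35), 2 (-0.39), 3 (-0.34) or 4 (-0.38), SNI-Saline replicate 1 (-0.38), 2 (-0.33), 3 (-0.31) or 4 (-0.42), Sham-Saline replicate 2 (-0.37), 3 (-0.36) or 4 (-0.37), and Sham-DMI replicate 3 (-0.37). Relative to pan-neuronal genes, the difference in Mrgprx1 was -0.40 log2 units under sham and -0.40 under SNI (exact permutation p = 0.0286 each).

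Mrgprx1 was also lower with injury. It fell by 18.9% in SNI-Saline versus Sham-Saline (log2 fold change -0.30, SE 0.1, edgeR adjusted p = 0.0788). The adjusted p went above 0.1 when SNI-DMI replicate 1 (-0.29), SNI-Saline replicate 1 (-0.27), 2 (-0.31) or 4 (-0.25) or Sham-Saline replicate 1 (-0.27), 3 (-0.31) or 4 (-0.27) was left out. In SNI-DMI versus Sham-DMI the value was -0.32 (SE 0.101, adjusted p = 0.223), also without overlap between the groups. Relative to pan-neuronal genes the differences with injury were -0.29 under saline and -0.28 under DMI, each with an exact permutation p of 0.0857. Mrgprx1 with injury under DMI had an adjusted p of 0.0746 with DESeq2 and 0.0820 without Sham-DMI replicate 1.

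Mrgpra3, the chloroquine receptor, which is known from the same itch neurons as Mrgprx1, was not called in any contrast. With saline, sham mice had 17.8, 14.3, 13.3 and 16.8 CPM and injured mice 14.2, 15.1, 13.8 and 16.2. With DMI, sham mice had 15.8, 15.97, 19.1 and 16.6 CPM and injured mice 13.05, 15.9, 13.8 and 13.9. The groups overlapped in every contrast. The log2 fold change with injury was -0.07 under saline (SE 0.096, edgeR adjusted p = 0.720, 95% interval -0.27 to 0.13) and -0.25 under DMI (SE 0.097, adjusted p = 0.313). With DMI it was 0.11 under sham (adjusted p = 0.460, interval -0.09 to 0.32) and -0.06 under SNI (adjusted p = 0.765). The direction under sham turned to -0.02 when libraries were scaled on pan-neuronal genes, and that of injury under saline to 0.01 without Sham-Saline replicate 1. The ratio of Mrgpra3 to Mrgprx1 CPM was 0.794 ± 0.0688 in sham and 0.946 ± 0.159 in injured mice with saline, and 1.12 ± 0.176 and 1.15 ± 0.0800 with DMI (SD, n = 4 each). Among 12 ratio comparisons, that of Sham-DMI with Sham-Saline had an exact permutation p of 0.0571 (adjusted p = 0.228). Even the smallest exact p that 4 against 4 mice allow, 0.0286, had an adjusted p of 0.172 among these 12. Not passing therefore cannot decide whether these itch receptors differ in their response.

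Mrgpre had the narrowest spread of the 6. With saline, sham mice had 37.6, 35.7, 37.1 and 40.3 CPM and injured mice 35.1, 38.5, 34.02 and 34.3. With DMI, sham mice had 35.9, 40.4, 36.8 and 32.9 CPM and injured mice 37.6, 38.7, 37.1 and 38.9. The groups overlapped in every contrast. The log2 fold changes were -0.09 with injury under saline (95% interval -0.22 to 0.04), 0.06 with injury under DMI (-0.07 to 0.19), 0.10 with DMI under SNI (-0.03 to 0.23) and -0.05 with DMI under sham (-0.17 to 0.08). Their edgeR adjusted p were 0.429, 0.734, 0.392 and 0.674. Scaling on pan-neuronal genes gave -0.18 with DMI under sham (adjusted p = 0.0958), beside the shift of the median of all genes to -0.155. The ratio of Mrgprd to Mrgpre CPM was 5.50 ± 0.757 in sham and 3.985 ± 0.452 in injured mice with saline, and 4.83 ± 0.1565 and 3.77 ± 0.556 with DMI (SD, n = 4 each). It did not overlap between injured and sham mice with saline or with DMI (exact permutation p = 0.0286 in each, adjusted p = 0.172 over the 12 ratio comparisons).

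Counted over the family, 3 of the 6 genes (Mrgprd, Mrgprb4, Mrgprx1) were called in SNI-Saline versus Sham-Saline, all lower, where 12% of all genes tested were called and 6.18% were called lower, and 4 had an unadjusted p under 0.05, where 23% of all genes did. Their median log2 fold change was -0.43, against -0.001 over all genes. In 2 of the 6 the groups did not overlap, where 15.4% of all genes did not. In SNI-DMI versus Sham-DMI 0 of 6 were called by edgeR (0.402% of all genes), 3 had an unadjusted p under 0.05 (12.1% of all genes), and the median was -0.27. Mrgprx1 was the 1 gene without overlap (5.04% of all genes) and the 1 called by DESeq2. In SNI-DMI versus SNI-Saline 1 of 6 was called (2.93% of all genes), 1 had an unadjusted p under 0.05 (18.5%) and 1 did not overlap (13.3%), with a median of -0.04. In Sham-DMI versus Sham-Saline 1 of 6 was called (23.4% of all genes), 2 had an unadjusted p under 0.05 (30.6%) and 0 did not overlap (17.1%), with a median of -0.29. In the test of the difference between the DMI effects 0 of 6 were called and 0 had an unadjusted p under 0.05, where 0% and 7.92% of all genes did, and DESeq2 also called 0 of 6. The cut-offs of the study were an unadjusted p under 0.05 and a log2 fold change of 0.32 or more in size before rounding. By these, 3 of 6 genes passed for injury under saline (7.15% of all genes), namely Mrgprd, Mrgprb4 and Mrgprb5. Mrgprx1, at -0.302, did not pass there. For injury under DMI 0 passed (5.41%), and for the difference 0 (3.45%). For DMI under SNI 1 passed, Mrgprx1 (5.73%), and for DMI under sham 2, Mrgprb4 and Mrgprx1 (11.5%). These contrasts share groups of mice and are not independent of each other.

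**Figure D3:**
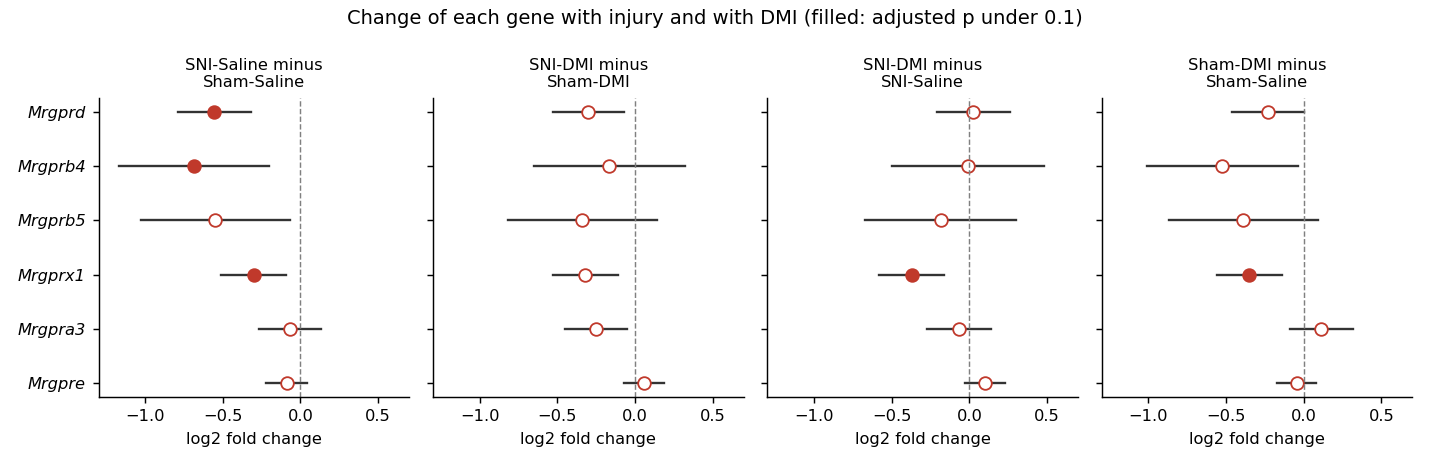
Log2 fold change of each of the 6 genes in 4 contrasts of 4 against 4 mice, with 95% intervals from the edgeR fit. Filled circles have an adjusted p under 0.1. In SNI-Saline minus Sham-Saline, Mrgprd (-0.56), Mrgprb4 (-0.68) and Mrgprx1 (-0.30) are filled, and Mrgprx1 is the filled gene of both DMI panels (-0.37 and -0.35).

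Mrgprf, at a mean of 2.14 CPM per kb, was the most abundant of the other protein-coding family genes. Of 16 other family genes on the list, which holds Mas1 and Mrgprb13, annotated as a pseudogene, 9 could be tested. In CPM, Mrgprf was at 3.27 to 6.93, a range that overlaps that of Mrgprb4, and it was not called, and Mas1, the founder of the family, was at 1.12 to 1.57 CPM. Mrgpra9, a relative of Mrgpra3, was lower after injury with saline (log2 fold change -1.405, SE 0.385, edgeR adjusted p = 0.0425), at 0.607 to 0.935 CPM in sham and 0.127 to 0.466 in injured mice, without overlap. Mrgpra1 was lower with DMI under SNI (-0.79, SE 0.216, adjusted p = 0.0904, without overlap) and under sham (-0.54, SE 0.210, adjusted p = 0.0884). Injured mice had 0.596 to 0.819 CPM with saline and 0.331 to 0.444 with DMI. Among the pseudogenes, Mrgprx3-ps held 8.88% of the family's reads. With saline it was at 26.3 to 35.4 CPM in sham and 20.8 to 28.4 in injured mice (-0.39, SE 0.106, adjusted p = 0.0417). Mrgprb2, the receptor of mast cells, had at most 9 reads in a library and Mrgprb3 had 0 in all 16, which does not show that it is absent.

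Levels of the 6 genes were then compared across mice after removing group means, over 15 pairs. Of these, 14 had a positive Pearson r and 5 had an adjusted p under 0.1. The share among pairs of all genes tested was not computed, so these counts do not set the 6 genes apart from other genes. The pairs with the smallest p were Mrgprd with Mrgprb5 (r = 0.722, rho = 0.724, permutation p = 0.00939, adjusted p = 0.0592), Mrgprb4 with Mrgprb5 (r = 0.691, rho = 0.747, permutation p = 0.0111, adjusted p = 0.0592) and Mrgprd with Mrgprx1 (r = 0.601, rho = 0.629, permutation p = 0.0118, adjusted p = 0.0592). The permutation p of rho for these pairs were 0.0113, 0.00632 and 0.0160. Without the 2 mice farthest from the median of the first gene, r was 0.763, 0.732 and 0.600. Mrgpra3 with Mrgprb4 (r = 0.678, permutation p = 0.0238) and Mrgprb5 with Mrgprx1 (r = 0.568, permutation p = 0.0291) both had an adjusted p of 0.0874, whereas for rho (0.615 and 0.524) it was 0.129 and 0.130. Mrgprx1 with Mrgpre (r = 0.681, permutation p = 0.0420, adjusted p = 0.105) passed by rho alone (0.671, permutation p = 0.0204, adjusted p = 0.0766). Mrgpra3 and Mrgprx1, of the same itch neurons, had r = 0.153 (permutation p = 0.597, adjusted p = 0.659). All values of 1 mouse come from 1 library and share its dissection and depth.

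**Figure D4:**
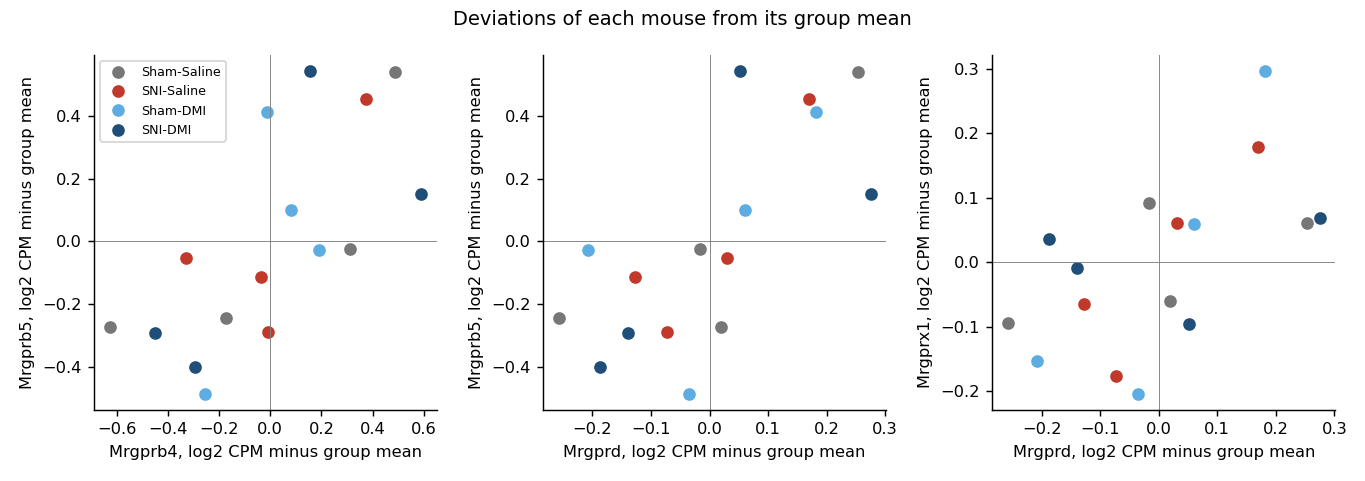
Deviation of each of 16 mice from its group mean, in log2 CPM, for 3 pairs of genes. Points are mice, coloured by group. In each panel the genes rise together, with r = 0.691 for Mrgprb4 and Mrgprb5, 0.722 for Mrgprd and Mrgprb5 and 0.601 for Mrgprd and Mrgprx1.

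Among all genes tested, those with a pattern most like Mrgprd over the 16 libraries were Myt1 (r = 0.975), Lpar5 (0.969), Rasgrp1 (0.962), Phf24 (0.961) and Plxnc1 (0.950), with r of 0.895 to 0.973 after removal of the group means. Lpar5, a lysophosphatidic acid receptor, and Plxnc1, a semaphorin receptor, stood on the list of Mrgprd-neuron genes. For Mrgprx1 they were Rasa1 (0.963), Nr2c2 (0.958), Fam13b (0.950), Agfg1 (0.942) and Ppm1e (0.942), and without group means 0.734 to 0.879. Mrgprb5 was most like 4930518I15Rik (0.936), Gm37092 (0.934), Exoc1 (0.928), the family pseudogene Mrgprc1-ps (0.927) and the anoctamin gene Ano3 (0.927). For Mrgprb4 they were Ggta1 (0.894), Atf2 (0.879), Klhl5 (0.878), Kcnab1 (0.877) and Exph5 (0.874). Mrgpra3 had Adk (0.884), Tpd52 (0.854), Cd24a (0.852), Tmem45b (0.820) and Sdcbp (0.797), and Mrgpre had Disp2 (0.824), Xpo6 (0.819), Gm9728 (0.796), Gtf2ird1 (0.794) and App (0.784). These are descriptions over 16 libraries that share depth and composition.

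Other genes of the neuron classes gave a scale for these changes. Of 12 genes of Mrgprd neurons, 5 fell in SNI-Saline versus Sham-Saline, where 6.18% of all genes were called lower, and all 12 had a negative log2 fold change, with a median of -0.24. Lpar5 fell from 10.8 ± 1.17 to 7.42 ± 0.691 CPM (SD, n = 4 each; log2 fold change -0.54, edgeR adjusted p = 0.0171). Plxnc1 (-0.40, adjusted p = 0.0189), the angiotensin receptor Agtr1a (-0.42, 0.0466) and the sodium channel Scn11a (-0.26, 0.0616) also fell. In SNI-DMI versus Sham-DMI 0 of 12 were called by edgeR and 6 had an unadjusted p under 0.05, with a median of -0.18, Cd55 (-0.26, adjusted p = 0.215) and Lpar5 (-0.36, 0.233) having the smallest p. With DMI, 0 of 12 were called under SNI (2 with an unadjusted p under 0.05) and 1 under sham, Plxnc1 (-0.23, adjusted p = 0.0770), where 11.9% of all genes were called lower.

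The 8 genes of Mrgpra3 neurons, like Mrgpra3 itself, gave 0 calls for injury with saline (median -0.05, 2 with an unadjusted p under 0.05) and with DMI (median 0.02, 1 such gene). Of all genes tested, 12% were called with injury under saline (6.18% called lower) and 0.402% with injury under DMI. The leukotriene receptor Cysltr1 fell with DMI under sham (-1.02, edgeR adjusted p = 0.0384) and was the only 1 of the 8 called there, where 11.9% of all genes were called lower. Its level was low, at 0.173 to 1.03 CPM over the 16 libraries. Of 8 genes of the Sst and Nppb neurons, a further itch class, 2 fell with injury under saline, Lifr (-0.43, adjusted p = 0.0228) and Il31ra (-0.38, 0.0991), and 0 were called under DMI. Of 6 genes of C-fibre low-threshold mechanoreceptors, another non-peptidergic C-fibre class, 4 fell with injury under saline. They were Zfp521 (-0.29, adjusted p = 0.0279), Gfra2 (-0.31, 0.0659), P2ry1 (-0.36, 0.0728) and Cacna1i (-0.57, 0.0770). Gfra2 is also counted among the called genes of Mrgprd neurons and among the regulators of Mrgpr expression below, so these counts are not separate. Peptidergic nociceptor genes had 0 of 8 calls with injury under saline and a median of 0.08, with Calca, which encodes CGRP, at 0.17 (adjusted p = 0.141). Among 8 A-fibre genes, Ntrk2 fell (-0.27, adjusted p = 0.0352) and Spp1 rose (0.41, 0.0898) in that contrast. With DMI under sham, where Mrgprx1 and 23.4% of all genes were called, genes of other classes were called in both directions. Nppb of the Sst and Nppb neurons rose (0.37, edgeR adjusted p = 0.0891). On its list of 8 genes, 6 had a negative log2 fold change, with a median of -0.165 over the list. The peptidergic genes Calca (0.19, adjusted p = 0.0771) and Calcb (0.15, 0.0930) also rose, while Smr2 fell (-0.49, 0.0139). Of the A-fibre genes Pvalb (0.54, adjusted p = 0.00752) and Nefh (0.22, 0.0945) rose, and Ntrk2 (-0.30, 0.00896) and Ntrk3 (-0.46, 0.0326) fell. The part of these classes in the result for Mrgprx1, and any difference between the lists, was not tested.

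**Figure D5:**
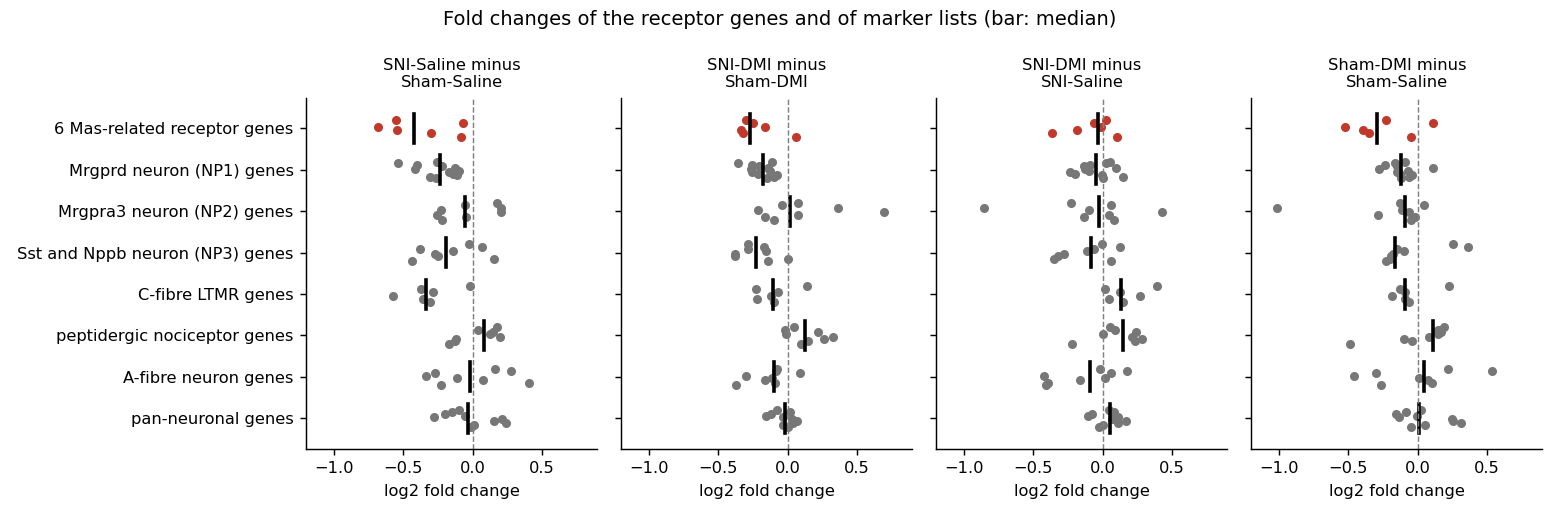
Log2 fold changes in 4 contrasts for the 6 receptor genes (red) and the tested genes of 7 marker lists (grey). Each point is a gene and the black bar is the median of the list. With injury under saline the medians are -0.43 for the 6 genes, -0.24 for Mrgprd-neuron genes and -0.05 for Mrgpra3-neuron genes. LTMR stands for low-threshold mechanoreceptor.

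Upstream of the receptors, 10 genes that control Mrgpr expression were examined, and 3 fell with injury under saline, where 6.18% of all genes did. Runx1 fell with injury under saline from 99.1 ± 9.63 to 74.9 ± 5.86 CPM (SD, n = 4 each; log2 fold change -0.40, edgeR adjusted p = 0.0174), as did Klf7 (-0.38, 0.0498) and the co-receptor of neurturin, Gfra2 (-0.31, 0.0659). In SNI-DMI versus Sham-DMI Runx1 was at -0.13 (adjusted p = 0.554) and Klf7 at -0.16 (0.579), and 0 of 10 were called by edgeR, with 0 under an unadjusted p of 0.05. With DMI under sham 3 of 10 fell, where 11.9% of all genes were called lower and 23.4% in either direction, the RUNX partner Cbfb (-0.22, adjusted p = 0.0155), Smad4 (-0.25, 0.0231) and Klf7 (-0.35, 0.0358). Under SNI 0 were called by edgeR and 1 had an unadjusted p under 0.05, Cbfb (-0.15, adjusted p = 0.185).

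Downstream, 4 of 15 signalling genes fell with injury under saline, where 6.18% of all genes did. They were the G-protein subunits Gnaq (-0.30, edgeR adjusted p = 0.0205) and Gnai1 (-0.13, 0.0876), the channel Trpa1 (-0.26, 0.0273) and the potassium channel Kcnq3 (-0.28, 0.0434). With DMI under sham 5 of 15 fell, where 11.9% of all genes did, among them Kcnq3 (-0.33, adjusted p = 0.00895), Gnai1 (-0.17, 0.0118), Gnaq (-0.21, 0.0384) and the phospholipase Plcb4 (-0.21, 0.0643), and under SNI 1 fell, Gnai1 (-0.18, 0.0674). A list of ligand precursors and proteases of these receptors, which also holds the receptor gene F2rl1, had 5 tested genes. Of these Ctss, the protease cathepsin S, rose with injury under saline (log2 fold change 1.01, edgeR adjusted p = 0.0320). Its level went from 13.5 ± 1.04 to 27.2 ± 12.8 CPM (SD, n = 4 each). Penk, which encodes the precursor of BAM peptides, was not called in any contrast and was at 0.80 with DMI under SNI (adjusted p = 0.322).

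Markers of other cell types moved in the same contrasts, and their part in the results above was not tested. With injury under saline, where 12% of all genes were called, 3 of 6 macrophage genes rose. The sum over the macrophage list was 61.4 to 71.6 CPM in sham and 77.5 to 138 in injured mice. The satellite glia gene Apoe rose (0.32, edgeR adjusted p = 0.0341), the only 1 of 6, with summed levels of 1951 to 2150 and 2227 to 2656 CPM. Of the pan-neuronal genes, Thy1 (0.24, adjusted p = 0.0339) and Tubb3 (0.21, 0.0826) rose and Syt1 (-0.28, 0.0428) and Elavl4 (-0.20, 0.0955) fell, and their geometric mean was 500 ± 9.62 CPM in sham and 494 ± 21.9 in injured mice (SD, n = 4 each). With DMI under sham 23.4% of all genes were called, and 11.9% were called lower. There 3 of 10 pan-neuronal genes rose, among them Thy1 (0.31, edgeR adjusted p = 0.00395), and 2 of 6 satellite glia genes rose. The pan-neuronal list had 5 genes with a positive and 5 with a negative log2 fold change (median 0.009). For the satellite glia list these were 3 and 3 (median 0.034). With DMI under sham 3 of 6 neutrophil and blood genes fell, S100a8 (-1.84, adjusted p = 0.00834), Ngp (-1.51, 0.0238) and S100a9 (-1.62, 0.0261). Their sum was 37.9 to 133 CPM in Sham-Saline, against 27.65 to 102 in Sham-DMI. Under SNI S100a8 alone of these fell (-1.70, adjusted p = 0.0747), with 67.5 to 138.5 CPM in SNI-Saline and 32.5 to 87.3 in SNI-DMI for the list. Injured sensory neuron genes rose in 4 of 8 cases with DMI under sham, from a summed 64.3 to 79.2 CPM to 82.7 to 113 CPM. Spinal cord genes fell in 2 of 5 tested cases there, Slc1a2 (-0.52, adjusted p = 0.0201) and Slc5a7 (-0.67, 0.0608), with sums of 24.9 to 26.8 and 16.3 to 22.7 CPM, and under SNI Slc1a2 fell (-0.49, 0.0999). With injury under saline Olig1 of that list rose (1.33, 0.0992), and with DMI under SNI the satellite glia gene Fabp7 rose (0.34, 0.0973). Schwann cell and mast cell lists had 0 calls by edgeR in the injury contrast under saline, with 1 and 0 genes at an unadjusted p under 0.05. Skeletal muscle genes had 0 calls by edgeR in the 4 contrasts, with 4 of 4 at an unadjusted p under 0.05 in SNI-DMI versus Sham-DMI and 0 in the others, and their sum reached 250.6 CPM in 1 SNI-DMI library while it lay between 1.40 and 70.2 in the saline groups.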

How the data were processed

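The authors made stranded mRNA libraries from the DRGs of 16 mice and sequenced pairs of 50-base reads. Per the labels, the reads were processed with HISAT2, HTSeq and DESeq2 on mm10, listed there without versions. The study's methods state a version for DESeq2 only, whose output is not used here. The strand setting and the annotation release of the counting are not given in the sources used here. The deposited values are whole-number counts per Ensembl gene without normalization. The 5 closing lines of reads not assigned to genes were left out, and 79.56% to 81.17% of read pairs lay on genes. Of 52636 genes, 52403 matched GENCODE M21, the source of symbols and coordinates.

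The test was that of edgeR 4.0.16, run in R 4.3.3. Genes kept by filterByExpr (21371) were scaled by TMM (factors 0.972 to 1.021) and fitted with glmQLFit, with 1 coefficient per group over all 16 libraries. A call is a Benjamini-Hochberg adjusted p under 0.1 over all genes tested. CPM is the count divided by the normalized library size, and log2 CPM used a prior count of 2. The value relative to pan-neuronal genes used log2(CPM + 0.1). Exact permutation tests, two-sided, compared single values of 4 against 4 mice, and pairs of genes were tested by 100000 permutations within groups. Fits were repeated with DESeq2 1.42.0, upper-quartile scaling, no filter, the 8 libraries of a contrast, the replicate number as a block, removal of GC content and exon length trends (mgcv 1.9.3, basis size 8), scaling on pan-neuronal genes, the cut-offs of the study (nominal p under 0.05 with a log2 fold change of 0.32 or more in size), and each library left out. In data simulated for the injury contrast, 200 of 21371 genes were changed and counts were drawn independently for each gene. Of genes changed by 0.5 on the log2 scale 64% were called, and of those changed by 1, 91%, and 5.5% of calls were false. The measured contrast had 2571 calls, so these rates need not hold for it. Averaged over genes, counts of replicates differed by far more than counting error, so the spread between mice sets the precision of genes with many reads. For genes with few reads, such as Mrgpra1 (19 to 58 per library), counting error also limits it.

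The 6 genes, the gene lists and the tests were chosen with earlier results of these data known. Named genes are the 6 genes, tested family genes, up to 4 called genes per list and contrast by p (or, where none was called, those with the smallest p), and the 5 genes most like each gene by Pearson r. Other genes are named as background or to complete a count. Identity between genes was computed on coding sequences.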

Additional observations from a re-analysis of the deposited data

How the results depend on the processing

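Of 684 refits of the 6 genes over 5 contrasts, 623 kept their direction and side of the threshold, 28 lost a call, 12 gained one and 21 changed sign. The sign changed among values without a call, and the cause was not tested. With trends on GC content and length removed, Mrgpre was at -0.0349 with injury under DMI and Mrgprb4 at 0.0939 with DMI under SNI. Scaled on pan-neuronal genes, Mrgprd was at -0.0344 with DMI under SNI, Mrgpra3 at -0.0242 with DMI under sham and Mrgprx1 at 0.0601 in the difference between the DMI effects. Without 1 library, Mrgpra3 ran from -0.125 to 0.012 (injury under saline), Mrgprd from -0.0747 to 0.0846 and Mrgprb4 from -0.243 to 0.139 (DMI under SNI), Mrgpre from -0.08 to 0.0028 (DMI under sham), and Mrgprb5 from -0.0095 to 0.386 and Mrgprx1 from -0.084 to 0.0877 (difference).

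The number of the 6 genes called went from 1 to 2 with DMI under sham by the study's cut-offs (11.5% of all genes). It also went to 2 with no filter, where 2056 of all genes were called higher and 2087 lower. Scaled on pan-neuronal genes it was 4, where 393 genes were called higher and 5210 lower, with the median of all genes at -0.155. It went from 1 to 0 with DMI under SNI with the trends removed, and from 0 to 1 with injury under DMI by DESeq2. Without 1 library it was 1 to 4 with injury under saline, 0 to 1 with injury under DMI, 0 to 1 with DMI under SNI and 1 to 2 with DMI under sham. Over all genes, calls by the cut-offs of the study were 1528 (injury under saline), 1156 (injury under DMI), 1224 (DMI under SNI), 2457 (DMI under sham) and 738 (difference), against 2571, 86, 626, 5010 and 0. With injury under DMI they were 310 with no filter, 9 in the 8 libraries alone, 216 with the trends removed and 517 by DESeq2. With DMI under SNI they were 1812 in the 8 libraries alone, 48 with the trends removed, 289 scaled on pan-neuronal genes and 1898 by DESeq2. With the trends removed 1042 remained with injury under saline, and DESeq2 gave 16 for the difference. Without 1 library the counts were 688 to 3282 (injury under saline), 23 to 549 (injury under DMI), 0 to 1854 (DMI under SNI), 3307 to 6105 (DMI under sham) and 0 to 1 (difference).

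Deviations of same-numbered mice had r from -0.081 to 0.184, and 19 of 24 pairs were under 0.1. Mice with different numbers were not compared, so these values cannot decide whether replicate numbers pair the mice. With the replicate block, DMI under SNI had 172 calls and 0 of the 6 genes, Mrgprb4 lost its call with injury under saline (-0.69, adjusted p = 0.123), and Mrgprx1 with DMI under SNI (-0.37, 0.120).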
